A study of Mus musculus with 12 samples.

Results

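The transcripts of the gastrocnemius, the large calf muscle, were compared between the denervated right leg and the intact left leg of male wild-type C57BL/6 mice. Polyadenylated RNA was sequenced from 3 libraries of each leg, 6 of the 12 libraries of a series that also holds a second strain. Per the labels' protocols, the right sciatic nerve was cut under isoflurane below the piriformis muscle, both ends were folded back and stitched to nearby muscle, and the muscle was taken 2 weeks later. The left legs are labelled healthy. The protocol also describes a sham operation that exposes the nerve without cutting it, and no label says whether these left legs had one. No age is given. Whether the libraries of a leg stem from different mice is not stated in the labels. The tests below therefore weigh differences only against the spread among these libraries, which may be technical. Expression was given as RPKM, reads scaled by transcript length and library size. Of the 25094 genes listed, 10484 averaged 1 RPKM or more over the 6 libraries and were analysed. Of the others, 6475 were listed at 0 in every library and 8135 lay above 0 and below that mean, among them 560 genes that reached 1 RPKM on average in the right legs. At that limit, Rbm15b was inside with a mean of 1.0002 RPKM and Cth was outside with 0.99967 RPKM.

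Skeletal muscle fibres live under the control of their motor nerve. Nerve activity sets which isoforms of the contractile proteins a fibre makes, confines acetylcholine receptors to the synapse and keeps the fibre's protein synthesis and breakdown in balance. A fibre that loses its nerve atrophies, spreads receptors of the fetal type over its membrane and takes up again genes of the developing muscle. The mouse gastrocnemius consists mostly of fast glycolytic fibres, which contract quickly and run on glycogen and phosphocreatine. In bulk RNA, fewer cells of a type and less RNA per cell cannot be told apart, which holds for every change below.

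The labelled tissue was checked by 10 markers of muscle fibres, all of which were present in both legs and summed to 167773 to 178634 RPKM in the left and 91405 to 98524 RPKM in the right legs. The libraries had been scaled by totals of 18743628 to 19110481 reads, and 15785852 to 16719872 reads of each lay in listed genes. Over all tested genes no library stood apart from its leg. The median absolute difference in log2(RPKM + 0.5) between 2 libraries was 0.118 to 0.152 within a leg and 0.700 to 0.742 between the legs.

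The 2 legs spread their reads differently over the genes. RPKM gives a gene's share of the reads of a library, and the reads of the intact legs were held by few genes. In the left legs 24 to 29 genes held 50% of the reads in listed genes, and in the right legs 211 to 231 genes did. The 20 most abundant genes took 46.7%, 45.5% and 47.2% of the reads in the left and 25.2%, 24.6% and 25.3% in the right legs (46.4% ± 0.855 against 25.0% ± 0.382, SD, n = 3 libraries each). The legs did not overlap, and the exact two-sided permutation test gave p = 0.1, the smallest value that 3 against 3 libraries allow. In turn more genes were detected in the right legs: 10772 to 11068 genes reached 1 RPKM in a right library against 9435 to 9511 in a left one.

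Each gene was therefore tested on 2 scales, as deposited and after each library had been divided by its median-of-ratios factor, which sets the change of the median gene near 0. The factors were 0.780 to 0.786 in the left and 1.26 to 1.29 in the right libraries. A change is the right-leg minus the left-leg mean of log2(value + 0.5), so changes of weakly expressed genes come out too small. Calls needed an adjusted p under 0.05 (limma, Benjamini-Hochberg over all 10484 genes). As deposited, 7458 genes were called higher (71.1% of those tested) and 1067 lower (10.2%), with a median change of 0.64. After rescaling, 3410 were called higher (32.5%) and 3339 lower (31.8%), with a median change of 0.01. All 3410 genes called higher after rescaling were also called higher as deposited, and all 1067 called lower as deposited were also called lower after rescaling. A further 722 genes (6.89%) were called higher as deposited and lower after rescaling, and none the other way round. Rescaling lowered the changes throughout, so the direction of this nesting and the lack of reverse cases largely followed from the arithmetic. On neither scale, 409 genes (3.90%) were called. In all, 81.3% of the genes were called as deposited and 64.4% after rescaling. All 3 right libraries lay above all 3 left ones in 72.4% of the genes as deposited and in 35.6% after rescaling, and below them in 10.8% and 34.8%. No measure of total RNA per muscle is given, so neither scale can be turned into an amount per muscle. Below, rose and fell are used of genes called after rescaling, that is, against the median gene. Means are in deposited RPKM with their SD over 3 libraries, and changes are rescaled log2 values unless the deposited scale is named.

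**Figure D1:**
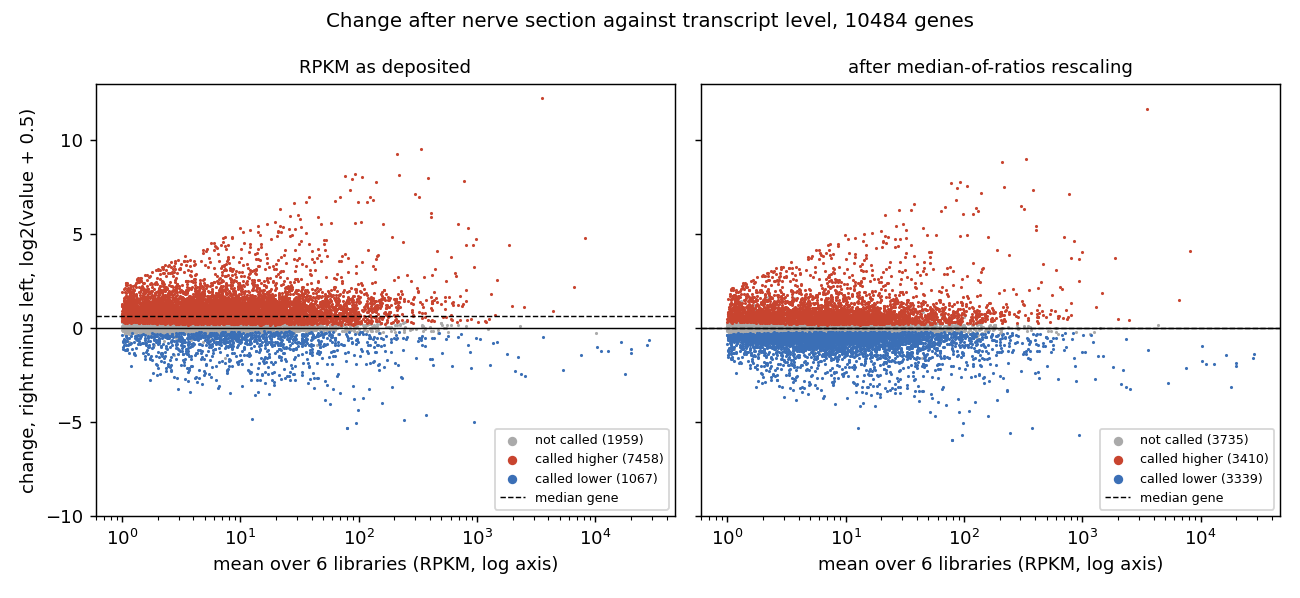
Change of each of the 10484 tested genes (right minus left, log2 of the value + 0.5) against its mean RPKM over the 6 libraries (log axis), as deposited on the left and after median-of-ratios rescaling on the right. Red genes were called higher and blue genes lower; the dashed line is the median gene, at 0.64 as deposited and at 0.01 after rescaling. The most abundant genes, at the right edge of each panel, lie mostly below both lines.

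The most abundant transcripts shifted against the rest. Of the 38 genes that averaged 1000 RPKM or more, 26 fell and 8 rose, with a median change of -1.31. In the 6 classes of lower abundance the median change lay between -0.15 and 0.05. The genes that lost most share encode the fast contractile apparatus and its energy supply. Myh4, the myosin heavy chain of the fastest (type 2B) fibres, went from 6.002% to 1.35% of the reads in listed genes. Ckm, muscle creatine kinase, went from 4.91% to 0.933%, and Atp2a1, the calcium pump of fast fibres, from 4.35% to 1.59%. The other 7 of the 10 largest losses were Acta1 (skeletal actin), Tpm1 (tropomyosin), Tnnt3 and Tnnc2 (fast troponin T and C), Aldoa and Pygm (aldolase and glycogen phosphorylase) and Pvalb (the calcium buffer parvalbumin). All 10 fell. Several overlap another listed gene (Ckm with A930016O22Rik, Atp2a1 with Rabep2, Tnnt3 with Prr33), and strand was not used, so a part of their reads may belong to the other gene.

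Ckm measured 30223, 28250.5 and 31508 RPKM in the left and 4257, 7129 and 5878 RPKM in the right legs (change -3.12 ± 0.19 (SE), adjusted p = 4.8e-06). Its right libraries spread more widely than its left ones and lay far below them. Pygm, which gives fibres glucose from glycogen, measured 4461, 4078 and 4365 RPKM in the left and 749.7, 723 and 732 RPKM in the right legs (change -3.25 ± 0.09 (SE), adjusted p = 1.2e-07). Here the right libraries were nearly alike. Acta1 held the largest share of any gene in the right legs and stood at 37456, 31989 and 34306 RPKM in the left and 19219.8, 23857 and 22951 RPKM in the right legs (change -1.36 ± 0.14 (SE), adjusted p = 8.5e-05). Its legs did not overlap either, but its fall was the smallest of the 10 losses.

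The genes that gained most share came from a different repertoire. Mb, myoglobin, the oxygen store of slow and oxidative fibres, went from 0.0637% to 1.74% of the reads in listed genes. It measured 418, 706 and 577 RPKM in the left and 16877, 15691 and 14482 RPKM in the right legs. Car3, carbonic anhydrase 3, an enzyme of slow fibres and fat cells, went from 0.421% to 1.88%. H19, an imprinted RNA of fetal muscle that does not encode a protein, went from 0.0437% to 0.942%, with 191, 156 and 146 RPKM in the left and 2499, 4221 and 4004 RPKM in the right legs. Myh2 and Myh1, the heavy chains of type 2A and 2X fibres, went from 0.0576% to 0.777% and from 0.113% to 0.782%. Myh2, Myh1 and Myh4 lie in 1 cluster on chromosome 11 (mm9, the annotation the file names, 66984529 to 67073949), and Myh1 overlaps the listed gene Myhas. The others were Tpm2 (beta-tropomyosin, change 0.43), Des (desmin, the intermediate filament of muscle, change 0.47), Fhl1 (a LIM-domain protein of the sarcomere), Hspb7 (a small heat shock protein of heart and muscle) and Sln. All 10 rose, and in each the 3 right libraries lay above the 3 left ones. Their choice by gained share favours both, and 72.4% of all tested genes were separated in this way as deposited.

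**Figure D2:**
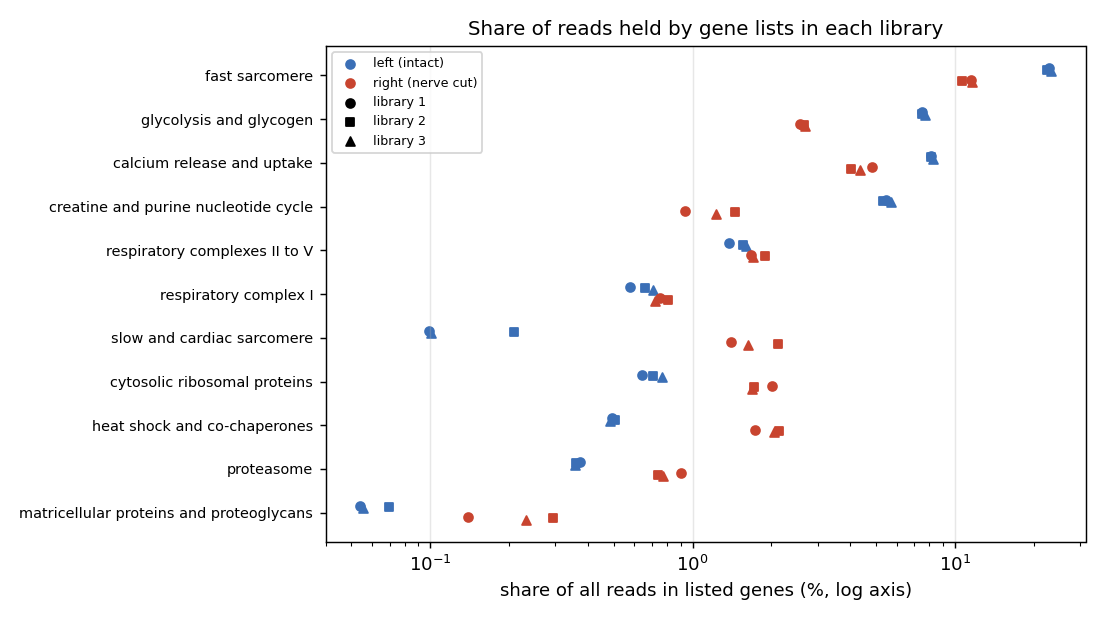
Share of the reads in listed genes held by 11 gene lists in each library (%, log axis), with left legs in blue, right legs in red and the library number as the symbol. Lists of the fast sarcomere, glycolysis, calcium handling and the creatine and purine nucleotide cycle lie lower in every right library, and lists of the slow sarcomere, ribosomal proteins, heat shock proteins, proteasome and matricellular proteins lie higher.

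Summed over whole lists, the fast sarcomere genes went from 22.9% ± 0.368 to 11.3% ± 0.53 of the reads in listed genes (SD, n = 3 libraries each). Glycolysis and glycogen genes went from 7.56% ± 0.117 to 2.64% ± 0.0564, and genes of the creatine and purine nucleotide cycle from 5.5% ± 0.195 to 1.2% ± 0.26. The slow and cardiac sarcomere genes moved up from 0.136% ± 0.0632 to 1.72% ± 0.371 and the cytosolic ribosomal proteins from 0.704% ± 0.0606 to 1.81% ± 0.176. The subunits of respiratory complexes II to V went from 1.51% ± 0.115 to 1.75% ± 0.115, a small step beside the others. The fast sarcomere list still held more of the right legs' reads than the slow one.

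The 15 largest rises and falls were ranked by the deposited change. They were taken from genes called in the same direction on both scales, with no overlap of the legs as deposited. The separation of the legs in these genes was thus set by the choice. The 15 rises had left-leg means of 0.065 to 7.02 RPKM. Most fall into receptors and ion handling, filament and stretch proteins, and growth control. Sln, sarcolipin, a small inhibitor of the sarcoplasmic calcium pump, measured 1.74, 0.724 and 0.515 RPKM in the left and 9837, 5100.0 and 6117 RPKM in the right legs (change 11.64 ± 0.34 (SE), adjusted p = 1.9e-07). The first right library was the highest, and the legs lay far apart. Chrng, the gamma subunit of the fetal acetylcholine receptor, measured 0.111, 0.028 and 0.056 RPKM in the left and 151, 159 and 151 RPKM in the right legs. Chrnd, its delta subunit, measured 0.411, 0.072 and 0.504 RPKM in the left and 221, 191 and 223 RPKM in the right legs. Chrng differed little between the right libraries, and its 3 left libraries held 4, 1 and 2 reads. Rrad, a small GTPase that inhibits voltage-gated calcium channels, rose by 7.52.

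To show what the promoters of the muscle receptor subunits hold, the 250 bases before the start are printed for the 4 subunit genes with an entry in RefSeq's table (GRCm38.p6), 5′ to 3′ on the gene's strand. Besides Chrng these are Chrna1 and Chrnb1, the alpha and beta subunits, which rose by 6.37 and 3.01, and Chrne, the subunit of the adult receptor, which was not called (change -0.26 ± 0.45 (SE), adjusted p = 0.636) but was called lower without left library 2 (-0.85, adjusted p = 0.00839). Chrne overlaps 4930544D05Rik in the annotation, and the reads of the 2 cannot be told apart. The windows are chr1:87205561-87205810 on the plus strand for Chrng, and, on the minus strand, chr2:73580339-73580588 for Chrna1, chr11:69795938-69796187 for Chrnb1 and chr11:70619195-70619444 for Chrne. Capitals mark the letters CAGCTG, a form of the E-box that myogenic regulators such as myogenin are known to bind, which reads the same on both strands.
Chrng: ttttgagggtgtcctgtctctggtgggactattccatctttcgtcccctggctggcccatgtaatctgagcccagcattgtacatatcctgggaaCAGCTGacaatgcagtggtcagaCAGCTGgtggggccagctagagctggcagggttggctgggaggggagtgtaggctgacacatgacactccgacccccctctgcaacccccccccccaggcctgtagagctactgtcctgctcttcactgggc
Chrna1: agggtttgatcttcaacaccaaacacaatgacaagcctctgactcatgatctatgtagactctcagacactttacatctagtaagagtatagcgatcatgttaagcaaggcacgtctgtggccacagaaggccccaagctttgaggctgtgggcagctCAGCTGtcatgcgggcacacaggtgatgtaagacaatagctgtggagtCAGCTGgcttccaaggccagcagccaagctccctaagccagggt
Chrnb1: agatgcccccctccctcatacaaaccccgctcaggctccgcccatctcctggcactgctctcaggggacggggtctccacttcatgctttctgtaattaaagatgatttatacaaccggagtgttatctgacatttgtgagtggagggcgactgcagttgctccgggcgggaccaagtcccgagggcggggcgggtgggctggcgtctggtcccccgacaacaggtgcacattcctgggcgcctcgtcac
Chrne: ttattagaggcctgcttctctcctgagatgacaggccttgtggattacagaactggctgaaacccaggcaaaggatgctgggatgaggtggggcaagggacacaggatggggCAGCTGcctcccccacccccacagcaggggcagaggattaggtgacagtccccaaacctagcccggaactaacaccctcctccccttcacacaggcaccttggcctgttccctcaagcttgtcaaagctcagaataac
Chrng and Chrna1 hold 2 copies each, 155 and 132 bases before the start in Chrng and 92 and 44 bases before it in Chrna1. Chrne holds 1 copy, 138 bases before the start, and Chrnb1, which rose, holds none. Of the general E-box CANNTG (N for any base), which includes CAGCTG, Chrng, Chrna1 and Chrnb1 hold 3 copies each and Chrne 1. Of 8260 tested genes with an entry in the promoter table, 1210 (14.6%) held CAGCTG in such a window. Among the 15 largest rises 11 had an entry and 3 held it (Chrng, Igfn1 and S100a8), and among the 15 largest falls 13 had an entry and none held it. CANNTG was held by 61.6% of the tested genes with an entry, by 90.9% of such rises and by 69.2% of such falls. The start and strand listed for Igfn1 did not match the annotation, so its window may not lie before its start. These matches describe letters and were not tested as sites. Myog, the gene of myogenin, rose from 3.17 ± 1.38 to 183 ± 92.4 RPKM (change 4.91 ± 0.41 (SE), adjusted p = 2.5e-05).

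The filament and stretch genes among the 15 rises were Krt18 and Krt8, keratins that pair in simple epithelia, Ankrd1 and Csrp3, proteins of the titin and Z-disc region known to respond to load, Igfn1, a Z-disc protein, Aif1l, an actin-binding protein, and Tnnt1, slow troponin T. Krt18 measured 0.493, 0.268 and 0.534 RPKM in the left and 715, 651 and 655 RPKM in the right legs and rose by 8.99. Krt8 measured 0.235, 0.059 and 0.118 RPKM in the left and 219, 167 and 168 RPKM in the right legs and rose by 7.75. Both keratins were even across the right libraries. Ankrd1 spread over a wider range, with 2.07, 3.98 and 1.6 RPKM in the left and 499.7, 745 and 1049 RPKM in the right legs. Csrp3 measured 3.62, 12.7 and 4.78 RPKM in the left and 1058, 2105 and 1475 RPKM in the right legs. Igfn1 rose from 0.865 ± 0.543 to 279 ± 21.9 RPKM and Aif1l from 0.523 ± 0.0341 to 169 ± 10.7 RPKM.

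The remaining genes of the 15 were Cdkn1a and Igfbp2, of growth control, Aldh3a1, of detoxification, and S100a8. Cdkn1a, the cell cycle inhibitor p21, measured 4.89, 5.005 and 3.67 RPKM in the left and 769.6, 527 and 617 RPKM in the right legs (change 6.31 ± 0.16 (SE), adjusted p = 1.2e-07). Igfbp2, which binds insulin-like growth factors, was at 1, 3 and 1 reads in the left legs and at 90.8, 62.1 and 73.9 RPKM in the right ones. Aldh3a1, an aldehyde dehydrogenase best known from the cornea, measured 0.1, 0.101 and 0.269 RPKM in the left and 588, 297 and 369 RPKM in the right legs. S100a8, a calcium-binding protein of neutrophils and macrophages, measured 0.409, 0 and 0.137 RPKM in the left and 106, 283 and 133 RPKM in the right legs and is taken up again with the other neutrophil markers.

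**Figure D3:**
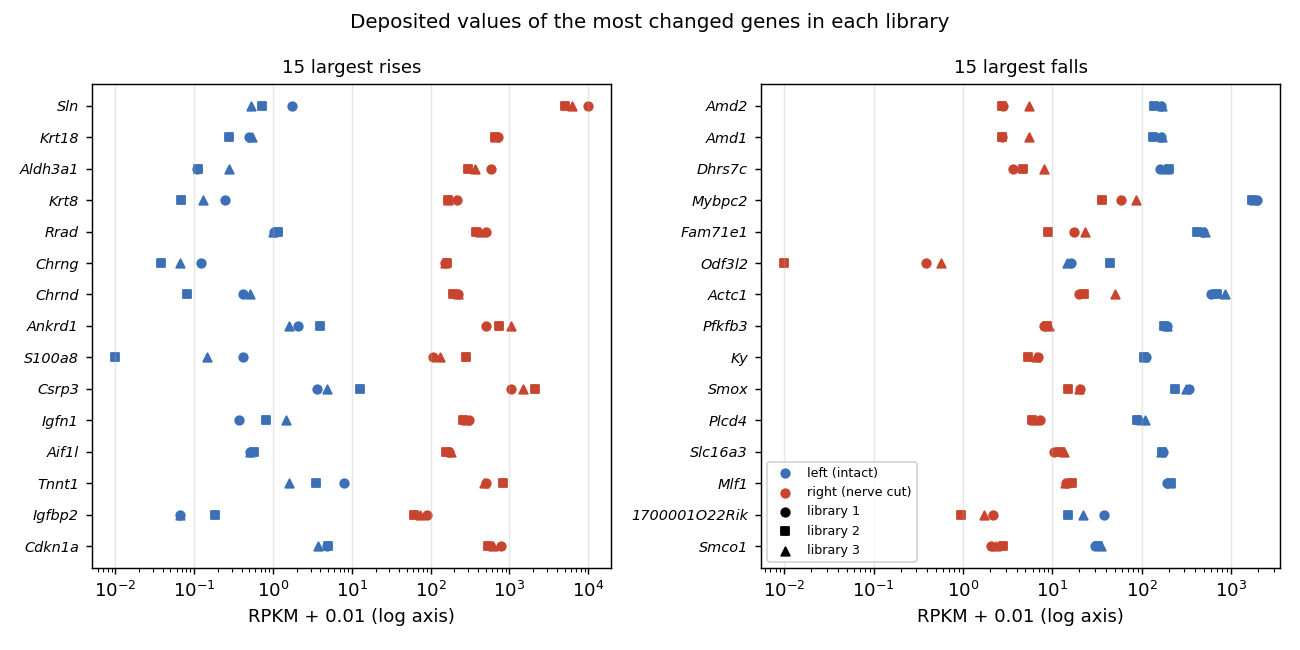
Deposited RPKM + 0.01 (log axis) of the 15 largest rises and 15 largest falls in each library, left legs in blue and right legs in red, with the library number as the symbol. In every row the 3 right libraries lie to 1 side of the 3 left ones, which the choice of these genes required. Odf3l2 was at 0 in right library 2.

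The 15 largest falls were smaller than the rises: their rescaled sizes stayed under 6.31, the lowest among the 15 rises, and 14 of the 15 genes kept a right-leg mean above 1 RPKM. Amd1, S-adenosylmethionine decarboxylase, which commits its substrate to polyamine synthesis, measured 164, 135 and 167 RPKM in the left and 2.75, 2.72 and 5.4 RPKM in the right legs (change -5.95 ± 0.23 (SE), adjusted p = 5.2e-07). Amd2 has an almost identical sequence and overlaps it in the annotation used, so the values of Amd1 and Amd2 are those of 1 pool of reads. Smox, spermine oxidase, another polyamine enzyme, fell from 298 ± 55.8 to 18.4 ± 2.86 RPKM. Dhrs7c, a dehydrogenase of the sarcoplasmic reticulum, measured 160.5, 203 and 192 RPKM in the left and 3.61, 4.72 and 7.98 RPKM in the right legs and fell by 5.69 on the log2 scale.

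Contractile and metabolic genes made up much of the rest. Mybpc2, the fast form of myosin-binding protein C, measured 1947, 1733 and 1802 RPKM in the left and 58.4, 35.6 and 86.6 RPKM in the right legs (change -5.70 ± 0.28 (SE), adjusted p = 1.7e-06). Fam71e1 overlaps Mybpc2 and strand was not used, so its fall from 468 to 16.6 RPKM (means) cannot be told apart from that of Mybpc2. Actc1, cardiac actin, measured 591, 699 and 849 RPKM in the left and 19.99, 22.4 and 50.5 RPKM in the right legs. Pfkfb3, whose product makes the strongest activator of phosphofructokinase, measured 192, 177 and 193 RPKM in the left and 8.07, 8.7 and 9.28 RPKM in the right legs (change -5.04 ± 0.08 (SE), adjusted p = 2.2e-08), and Slc16a3, the lactate exporter of glycolytic fibres, fell from 169 ± 4.89 to 12.1 ± 1.52 RPKM. In both genes the libraries of a leg were close to each other. Ky, a cytoskeletal peptidase-like protein of muscle, fell from 108 ± 3.51 to 6.25 ± 0.802 RPKM, Plcd4, a phospholipase C that overlaps Usp37, from 96.6 ± 11.2 to 6.43 ± 0.718 RPKM, and Mlf1, a myeloid leukaemia factor also found in muscle, from 204 ± 12.1 to 14.8 ± 1.62 RPKM. Odf3l2, 1700001O22Rik and Smco1 completed the 15.

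Some genes were all but absent from intact muscle. In 81 tested genes each left library held 3 reads or fewer, against 12 tested genes with 3 reads or fewer in each right library. Genes of the mean filter reach it through the leg in which they are present, so these counts describe the filter as much as the muscle. Hamp2, a hepcidin gene best known from liver, had no read in the left legs and 200, 115 and 173 reads in the right ones, at least 163-fold more in sum than a floor of 3 reads over the left leg. Its near relative Hamp had no left-leg read and 2, 2 and 3 right-leg reads. Mymx, one of the membrane proteins that fuse muscle precursors, had 1, 1 and 0 left-leg reads against 1182, 611 and 822 right-leg reads. Mymk, its fusion partner, which was chosen after its values were seen, rose from 0.205 ± 0.248 to 71.4 ± 14.4 RPKM. Bpifb1, a secreted lipid-binding protein of airways, had 1, 0 and 0 left-leg reads against 1872, 853 and 1262 right-leg reads. Agrp, a neuropeptide of feeding circuits, had 0, 1 and 2 left-leg reads against 99, 198 and 157 right-leg reads. The 8 such genes with the highest right means also included S100a8, Igfbp2, Gm15867 and Mir12181, which overlaps Coro6.

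Gene pairs that encode alternative forms of the same protein give a measure that does not depend on the scaling between libraries. The 28 pairs were chosen with earlier results of these data known, and ratios of other gene pairs were not examined. Among single genes, the legs did not overlap in 72.4% (right above left) and 10.8% (right below left) as deposited. Some pairs set a fast form against a slow one, and others a form of adult muscle against one of other tissues or stages. The ratio of the fast or muscle form to its partner was lower in every right than in every left library in 27 pairs. In 23 pairs both genes had more than 20 reads in every library. Of those, 22 ratios fell, by 1.66-fold to 305-fold with a median of 13.4-fold.

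Among the myosins, Myh4 over Myh1 was 89, 32.7 and 65.8 in the left and 1.85, 1.28 and 1.94 in the right legs, a fall of 34.6-fold, and Myh4 over Myh2 was 148, 74.6 and 116 in the left and 3.1, 0.877 and 1.88 in the right legs. Myh4 stayed ahead of Myh1 in every right library and fell behind Myh2 in right library 2. Mybpc2 over Mybpc1, the fast and slow forms of myosin-binding protein C, was 33.04, 8.28 and 32.8 in the left and 0.123, 0.047 and 0.153 in the right legs. Here the order of the forms turned over, with a fall of 217-fold. Tnnt3 over Tnnt1 fell 305-fold and was still 37.1, 23.3 and 42.1 in the right legs. Atp2a1 over Atp2a2, the fast and slow calcium pumps, fell 32.9-fold, and Casq1 over Casq2, the calsequestrins that store calcium, fell 31.8-fold.

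Pairs of the translation machinery changed too. Rpl3l is a muscle-restricted relative of the ribosomal protein gene Rpl3 (mm9 chromosome 17, 24864774 to 24873094). Rpl3l over Rpl3 was 95.3, 109 and 91.1 in the left and 0.656, 1.13 and 0.859 in the right legs, a fall of 114-fold. Rpl3l itself fell from 392 ± 35.2 to 65.8 ± 10.3 RPKM, while Rpl3 rose from 4.01 ± 0.632 to 76.4 ± 9.92 RPKM. Eef1a2, the form of elongation factor 1A in adult muscle and neurons, over Eef1a1, the form of most other cells, was 12.8, 10.8 and 9.89 in the left and 0.204, 0.28 and 0.219 in the right legs. Eef1a2 fell from 206 ± 7.27 to 106 ± 4.8 RPKM and Eef1a1 rose from 18.6 ± 1.78 to 458 ± 63.02 RPKM. In both pairs the muscle form led in every intact library, and in all right libraries but 1 (Rpl3l over Rpl3 in library 2) the general form was ahead.

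Metabolic pairs moved the same way. Ampd1 over Ampd3, AMP deaminases of muscle and of other tissues, was 479.7, 312 and 303 in the left and 6.2, 5.22 and 5.32 in the right legs. Ldha over Ldhb, the lactate dehydrogenases of glycolytic and oxidative tissue, fell 14.6-fold, Pygm over Pygb 9.3-fold, Hk2 over Hk1 4.89-fold, and Slc2a4 over Slc2a1, the insulin-responsive and the basal glucose transporter, 7.83-fold. The smallest falls were in subunits of cytochrome oxidase, with 3.1-fold for Cox8b over Cox8a, 2.03-fold for Cox6a2 over Cox6a1 and 1.66-fold for Cox7a1 over Cox7a2. The pairs with few reads in intact muscle included Chrne over Chrng, Tnni2 over Tnni1, Tnnc2 over Tnnc1 and Pgam2 over Pgam1. Their ratios also fell, but their sizes rest on a few reads, and Pgam1 lay below the mean filter.

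Skeletal over cardiac actin was the exception. Acta1 over Actc1 was 63.4, 45.8 and 40.4 in the left and 961, 1066 and 455 in the right legs, a rise of 15.8-fold. Both genes fell, and Actc1, a form of developing muscle, fell further. The 2 actins are close in sequence, so reads of one may have been counted for the other.

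**Figure D4:**
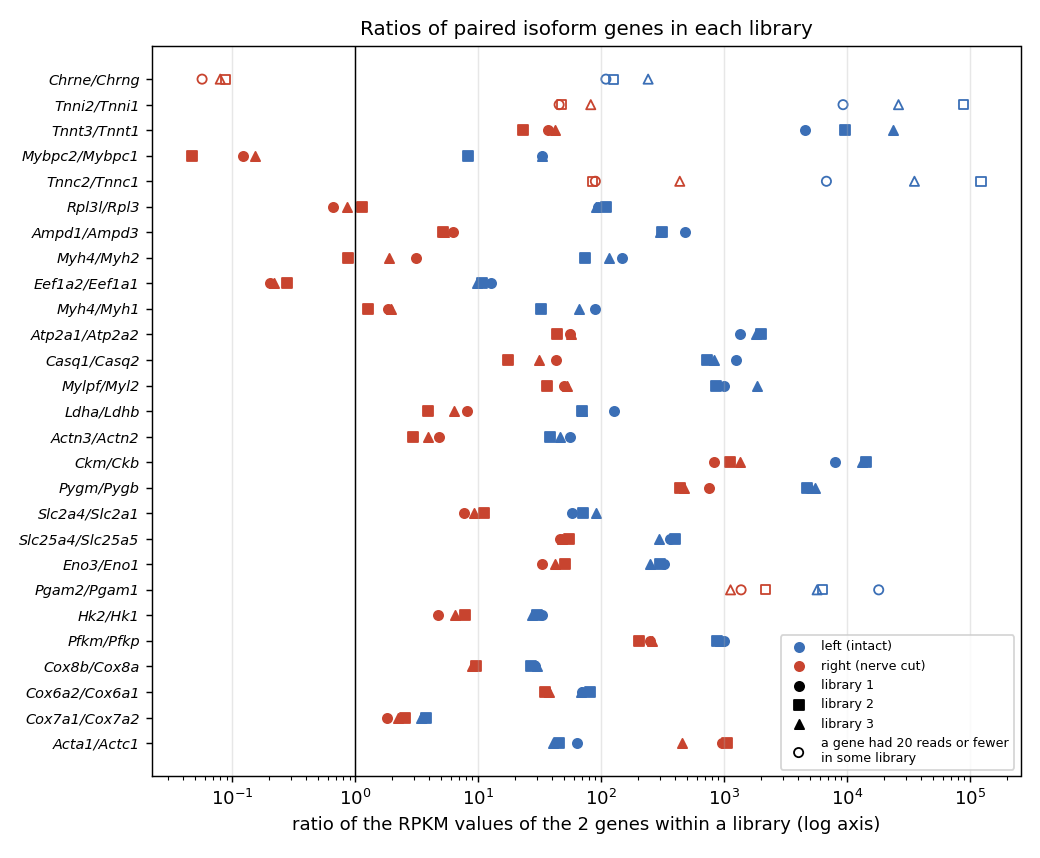
Ratio of the RPKM values of 27 of the 28 gene pairs within each library (log axis), ordered by the change, left legs in blue and right legs in red, with the library number as the symbol. Open symbols mark pairs in which a gene had 20 reads or fewer in some library. The right libraries lie below the left ones in 26 of the pairs shown and above them for Acta1 over Actc1, and the line marks equal values.

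In the lists of related genes described next, counts are set against the 32.5% of all tested genes that rose and the 31.8% that fell, and the median change of a list against 0.01 for all genes. The lists were put together with earlier results of these data known.

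The contractile apparatus changed in opposite directions by fibre type. All 15 tested genes of the slow and cardiac sarcomere rose, with a median change of 4.05, and of 17 of the fast sarcomere 13 fell and 3 rose, with a median of -1.73. Myom3, a slow-fibre protein of the M-band, rose from 2.18 ± 1.93 to 234 ± 9.89 RPKM and Tnni1, slow troponin I, from 0.704 ± 0.626 to 126 ± 41.4 RPKM. The share of these lists called is far from the 32.5% and 31.8% of all genes. Among the fast genes Mylk4 and Mylk2, kinases of the myosin light chain family, fell from 223 ± 42.3 to 23.4 ± 4.55 RPKM and from 396 ± 17.6 to 63.6 ± 4.74 RPKM. Those that rose were Myh2, Myh1 and Mybph.

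Genes of the developing sarcomere did not move as 1 group. Of 10 tested, 5 rose and 3 fell. Myh3, embryonic myosin, rose from 0.981 ± 0.0878 to 63.5 ± 19.1 RPKM and Tnnt2, cardiac and embryonic troponin T, from 1.24 ± 1.24 to 89.2 ± 14.3 RPKM. Myh8, perinatal myosin, instead fell from 267 ± 116 to 61.1 ± 22.7 RPKM (change -2.79 ± 0.34 (SE), adjusted p = 2.1e-04). Nes, nestin, and Myl6b, a light chain of slow and embryonic muscle, rose by 2.97 and 3.22.

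Proteins of the Z-disc and of stretch sensing split, with 14 of 29 higher and 12 lower. Lmod2, which nucleates actin filaments, rose from 13.2 ± 5.85 to 368 ± 18.3 RPKM and Mustn1, a small nuclear protein of muscle and bone, from 50.9 ± 12.4 to 872 ± 135 RPKM. Fhl3, a LIM-domain protein, fell from 92.4 ± 11.02 to 33.1 ± 3.17 RPKM, and Tmod4, a tropomodulin of fast fibres, from 475 ± 4.16 to 249 ± 11.4 RPKM. The list medians were 0.19 here and 0.74 for cytoskeletal genes. In that list, 16 of 23 rose, among them the tubulin gene Tubb6, from 3.36 ± 0.461 to 98.5 ± 7.42 RPKM. Tuba8, a tubulin enriched in muscle, fell from 244 ± 3.99 to 52.7 ± 13.6 RPKM.

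**Figure D5:**
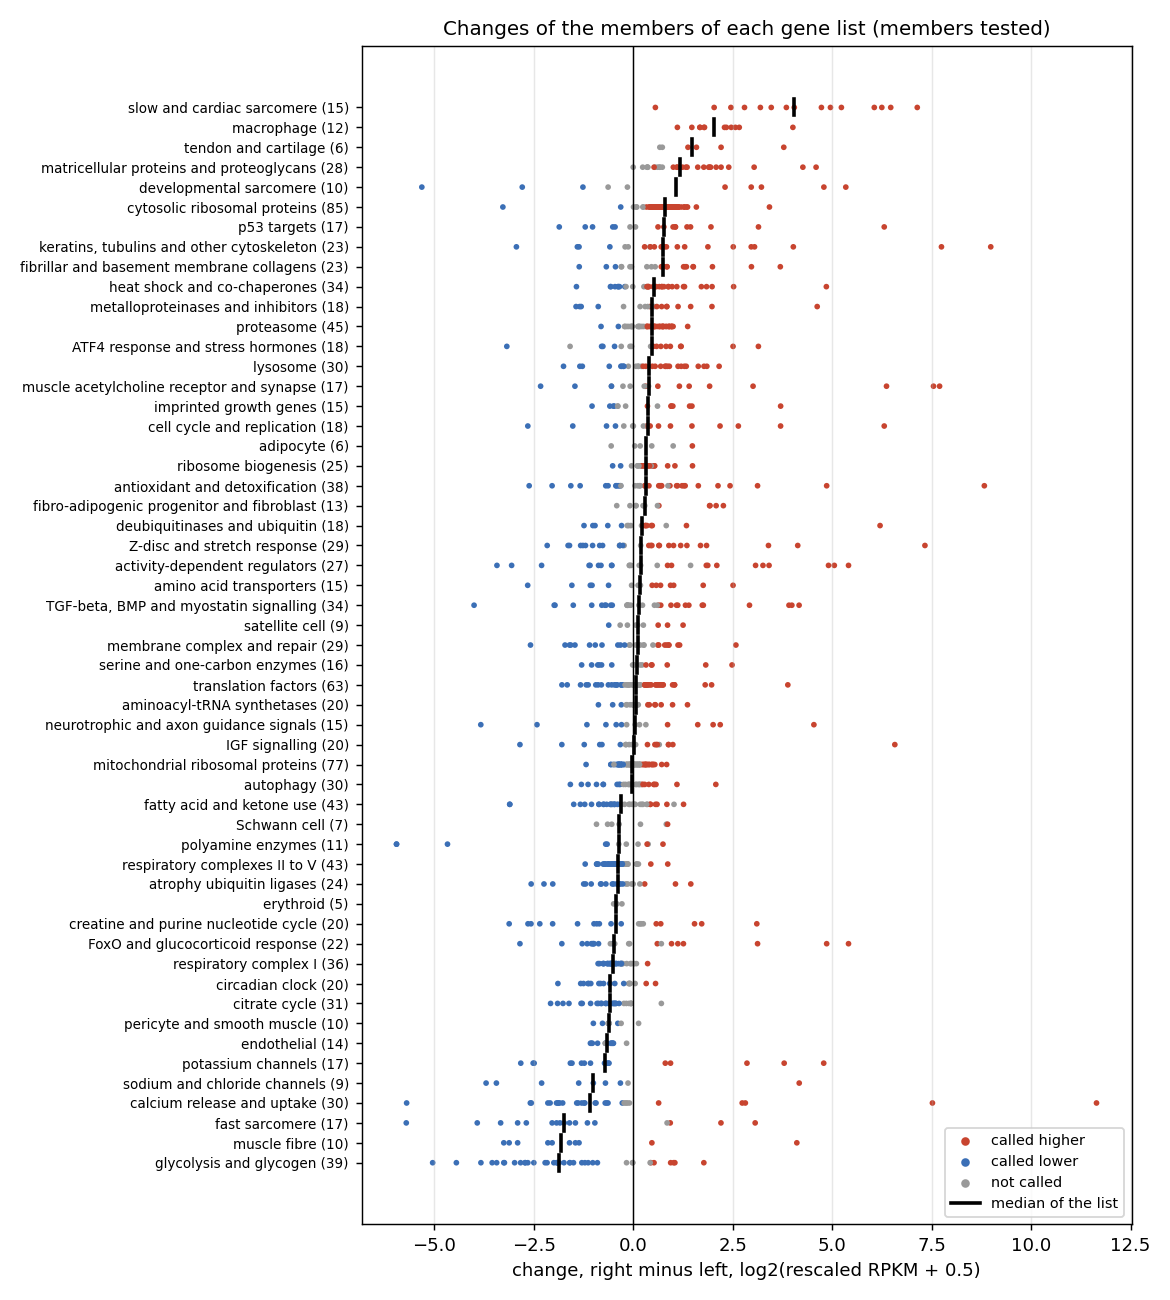
Rescaled change (right minus left, log2 of rescaled RPKM + 0.5) of each tested member of the gene lists with at least 5 tested members, ordered by their median (black bar). Red members were called higher, blue lower and grey not called, and the number of members tested is given in brackets. Slow sarcomere genes lie highest and glycolysis genes lowest, and single members of many lists lie far from their median.

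Of 17 potassium channel genes 12 fell and 5 rose, with a median of -0.72. Kcna7, a voltage-gated channel, measured 40.8, 39.9 and 33.9 RPKM in the left and 6.7, 10.02 and 8.22 RPKM in the right legs. Kcnj12, an inward rectifier that holds the resting potential, fell from 12.03 ± 0.508 to 2.92 ± 0.351 RPKM, and Kcnc1, a fast delayed rectifier, from 5.28 ± 1.05 to 0.988 ± 0.0379 RPKM. The channels that rose were of other classes. Kcnn3, the small-conductance calcium-activated channel SK3 known from denervated muscle, measured 0.09, 0.056 and 0.028 RPKM in the left and 8.57, 9.45 and 10.7 RPKM in the right legs. Kcnk5, a leak channel of the K2P family, measured 0.126, 0.127 and 0.174 RPKM in the left and 25.1, 18.3 and 27.8 RPKM in the right legs, and Kcnq5, of the M-current family, rose from 0.871 ± 0.303 to 14.1 ± 1.86 RPKM.

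Sodium and chloride channels fell in 7 of 9. Clcn1, the chloride channel that stabilizes the fibre membrane and whose gene overlaps Fam131b, measured 43.01, 42.999 and 42.9 RPKM in the left and 12.3, 15.5 and 13.5 RPKM in the right legs, a fall without overlap (change -2.30 ± 0.09 (SE), adjusted p = 5.4e-07). Scn4b, an accessory sodium channel subunit, fell from 50.6 ± 1.13 to 7.08 ± 0.985 RPKM, and Ano5, an anoctamin linked to muscular dystrophy, from 18.8 ± 0.855 to 1.78 ± 0.246 RPKM. Of the genes of calcium handling, 21 of 30 fell, with a median of -1.08, and 5 rose. Jph2, a junctophilin that ties the T-tubule to the calcium store, fell from 233 ± 11.3 to 62.8 ± 4.11 RPKM, and Cacna1s, the voltage sensor, was not called (change -0.09 ± 0.08 (SE), adjusted p = 0.337). It was called higher as deposited, by 0.61.

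At the synapse, 9 of 17 genes rose and 3 fell, or 5 without left library 2. Ache, which breaks down acetylcholine, fell from 12.8 ± 2.66 to 3.68 ± 1.12 RPKM. Dok7 and Lrp4, parts of the agrin receptor pathway, were called higher as deposited only, by 1.05 and 0.81, and had rescaled changes of 0.39 and 0.28.

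Regulators that answer to nerve activity moved in both directions, with 11 of 27 higher (40.7%) and 9 lower (33.3%). These shares are not far from the 32.5% and 31.8% of all tested genes. The 3 Gadd45 genes, which encode stress sensors, went apart. Gadd45a, which overlaps E230016M11Rik, measured 8.48, 10.95 and 14.7 RPKM in the left and 795, 775 and 826 RPKM in the right legs. Gadd45g instead measured 36.7, 53.1 and 120.3 RPKM in the left and 7.75, 13.4 and 14.7 RPKM in the right legs, and Gadd45b fell from 23.9 ± 3.59 to 7.45 ± 1.69 RPKM. Runx1, a transcription factor of denervated muscle, rose from 0.234 ± 0.0463 to 33.3 ± 3.27 RPKM. Maf, a transcription factor of fast type 2B fibres, fell from 26.1 ± 4.64 to 3.39 ± 0.69 RPKM, and Hdac5, a repressor regulated by activity, from 16.7 ± 1.33 to 12.3 ± 0.0769 RPKM.

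Genes of energy metabolism fell, those of glycolysis by more than those of the mitochondria. Of 39 genes of glycolysis and glycogen 29 fell and 6 rose, with a median of -1.86 (-1.20 as deposited). Gpd1, glycerol-3-phosphate dehydrogenase of the cytosol, measured 335, 337 and 348 RPKM in the left and 41.1, 32.97 and 41.8 RPKM in the right legs, and Fbp2, muscle fructose bisphosphatase, fell from 28.9 ± 3.61 to 3.49 ± 0.788 RPKM. Those that rose were Ldhb, Hk1, Slc2a1, Gbe1, Pfkl and Pgm1, the last 2 chosen after their values were seen. Gbe1, the glycogen branching enzyme, rose from 4.96 ± 0.929 to 29.02 ± 2.74 RPKM.

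For the mitochondria the 2 scales part. Of all tested genes, 71.1% were called higher and 10.2% lower as deposited. The deposited counts of mitochondrial genes are set beside these shares. As deposited, 15 of 36 subunits of complex I were higher and 0 lower, and after rescaling 1 rose (none without left library 1 or 2 or right library 1 or 2) and 27 fell. Complexes II to V gave 24 higher and 1 lower of 43 as deposited, and 2 and 32 after rescaling. Atp5b, the catalytic subunit of ATP synthase, is the most abundant of the genes that turned, with 1033, 1048 and 1080.3 RPKM in the left and 1239, 1420.0 and 1294 RPKM in the right legs. Its change was 0.32 ± 0.09 (SE), adjusted p = 0.00959 as deposited and -0.38 ± 0.09 (SE), adjusted p = 0.00497 after rescaling. Cox4i1, a core-associated subunit of cytochrome oxidase, had 0.45 ± 0.10 (SE), adjusted p = 0.00373 as deposited and -0.26 ± 0.10 (SE), adjusted p = 0.0475 after rescaling. Its rescaled call was lost without left library 2, left library 3, right library 1 or right library 3 (adjusted p 0.0957, 0.123, 0.0782 and 0.176). The 8 most abundant such genes also included Atp5j2, Atp5j, Atp5g3, Cox6c and Uqcr11, and, outside the respiratory chain, Ybx3, a cold-shock-domain protein.

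Citrate cycle genes fell in 23 of 31 after rescaling and none rose (1 without left library 2), with a median of -0.59. As deposited 11 were higher and 7 lower, beside 71.1% and 10.2% of all tested genes. Me3 and Me1, malic enzymes, and Idh3a, isocitrate dehydrogenase, were lower on both scales, with Idh3a at 191 ± 5.49 to 102 ± 7.09 RPKM from left to right. In fatty acid use, Perm1, a regulator of mitochondrial genes in muscle, fell from 26.2 ± 1.93 to 4.43 ± 0.574 RPKM and Plin4, a lipid droplet coat protein, from 23.3 ± 5.22 to 4.28 ± 2.39 RPKM, while Acadl, an acyl-CoA dehydrogenase, rose from 40.98 ± 6.46 to 120.0 ± 10.6 RPKM. Acadl thus went against the list's median of -0.31.

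Cytosolic ribosomal protein genes rose. Of 85 genes 77 rose, with a median of 0.79, and the 2 that fell were Rpl3l and Rpl15. Without left library 1 or 2 or right library 2 or 3 only 1 fell. Rps19, of the small subunit, measured 61.5, 61.2 and 69.02 RPKM in the left and 305, 253 and 240.4 RPKM in the right legs, and Rpl19, of the large subunit, rose from 36.3 ± 8.26 to 151 ± 15.8 RPKM. Ribosomal protein genes have many processed copies in the genome, so reads may have been split between copies. Of their mitochondrial counterparts 18 of 77 rose and 22 fell, with a median of -0.03 that turned sign in some of the fits without a library or with other factors. Without right library 3 there were 14 that fell. Ribosome assembly genes rose in 15 of 25, led by Fbl, fibrillarin, from 2.28 ± 0.817 to 11.3 ± 0.798 RPKM. Of 63 translation factors 25 rose (39.7%) and 18 fell (28.6%), not far from the 32.5% and 31.8% of all tested genes. Eif4a1, an RNA helicase of initiation, rose from 6.69 ± 0.417 to 39.8 ± 2.17 RPKM, and Eif4ebp2, a repressor of initiation, fell from 29.4 ± 5.19 to 13.3 ± 0.889 RPKM.

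Genes of protein breakdown went apart by class. Of 45 proteasome genes 29 rose and 2 fell (Psme4 and Psme1, both activators of the core particle), with a median of 0.48. Without right library 1 there were 5 that fell. Psmb5, a catalytic subunit, measured 45.2, 40.04 and 42.6 RPKM in the left and 199.6, 166 and 178 RPKM in the right legs. Of 24 ubiquitin ligases of muscle atrophy 3 rose and 16 fell. Fbxo30, the ligase MUSA1, rose from 1.1 ± 0.0554 to 6.06 ± 1.05 RPKM, and Mdm2, the ligase of p53, from 14.4 ± 1.81 to 49.6 ± 5.79 RPKM. Asb2 fell from 193 ± 31.2 to 53.1 ± 11.2 RPKM. Trim63 and Fbxo32, the atrophy ligases MuRF1 and atrogin-1, were chosen after their values were seen. Trim63 measured 69.8, 73.4 and 71.9 RPKM in the left and 98.8, 88.3 and 87.7 RPKM in the right legs. Fbxo32 measured 26.7, 23.6 and 15.2 RPKM in the left and 31.1, 34.3 and 26.7 RPKM in the right legs. Trim63 had a change of 0.35 ± 0.08 (SE), adjusted p = 0.00331 as deposited and -0.35 ± 0.07 (SE), adjusted p = 0.00372 after rescaling. Fbxo32 had 0.51 ± 0.20 (SE), adjusted p = 0.0418 as deposited and -0.18 ± 0.20 (SE), adjusted p = 0.45 after rescaling. Without left library 2, left library 3, right library 1 or right library 2 the deposited call of Fbxo32 was lost (adjusted p 0.0501, 0.0795, 0.0842 and 0.112), and without left library 3 it was called lower after rescaling (adjusted p 0.0188). Neither gene was called higher against the median gene with all libraries.

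Some other single genes of breakdown changed by more. Uchl1, a ubiquitin hydrolase of neurons, measured 1.72, 2.21 and 1.5 RPKM in the left and 294, 230.0 and 265 RPKM in the right legs (change 6.21 ± 0.14 (SE), adjusted p = 9.0e-08). In autophagy 9 of 30 rose and 9 fell. Map1lc3a, a form of LC3 on autophagosomes, rose from 169 ± 16.6 to 1167 ± 102 RPKM, and Tfeb, a transcription factor of lysosome genes, fell from 49.5 ± 3.38 to 26.6 ± 1.36 RPKM. Of 30 lysosome genes 17 rose and 8 fell. Among the rises was Atp6v1e1, a subunit of the proton pump, from 56.4 ± 5.33 to 337 ± 65.6 RPKM. Psap, prosaposin, fell from 247 ± 6.44 to 166 ± 3.34 RPKM.

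Chaperones rose in 22 of 34 and fell in 8. Hspb7 and Hspb8, small heat shock proteins, rose most. Hspb7 measured 25.7, 37.8 and 22.6 RPKM in the left and 1025, 1604 and 1463 RPKM in the right legs, and Hspb8, a partner of Bag3 in chaperone-assisted autophagy, rose from 181 ± 19.8 to 1698 ± 147 RPKM. Cryab, alpha-B crystallin, rose from 423 ± 75.6 to 2519.7 ± 735 RPKM. Dnajb5, a co-chaperone, fell from 74.03 ± 5.67 to 44.5 ± 3.003 RPKM.

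Of 17 targets of p53 10 rose and 5 fell. Eda2r, a receptor of the tumour necrosis factor family, measured 3.23, 2.68 and 1.75 RPKM in the left and 48.1, 35.8 and 39.98 RPKM in the right legs, and Bax, which promotes cell death, rose from 9.28 ± 0.56 to 42.3 ± 4.8 RPKM. Ccng1, cyclin G1, fell from 180.4 ± 2.94 to 128 ± 21.04 RPKM. In the list of the ATF4 response, Atf3 rose from 0.674 ± 0.303 to 15.2 ± 5.92 RPKM and Chac1, which breaks down glutathione, fell from 56.98 ± 22.05 to 9.4 ± 2.8 RPKM. Mthfd2, a mitochondrial folate enzyme, rose from 1.39 ± 0.399 to 15.4 ± 2.03 RPKM. The metal-binding metallothionein Mt1 measured 13.5, 17.3 and 19.98 RPKM in the left and 132, 391 and 279 RPKM in the right legs. Mt2 measured 4.97, 5.52 and 6.07 RPKM in the left and 139, 494 and 316 RPKM in the right legs, and both were lowest in right library 1. Aldh2, the mitochondrial aldehyde dehydrogenase, rose from 27.9 ± 5.29 to 246 ± 20.1 RPKM, while Mgst3, a glutathione transferase of membranes, fell from 148 ± 8.21 to 39.3 ± 6.8 RPKM.

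Genes of the myostatin and BMP pathways, which restrain and promote muscle growth, changed in both directions. Among the ligands, Mstn, myostatin, the inhibitor of muscle growth (mm9 chromosome 1, 53118484 to 53124923), measured 27.8, 27.1 and 23.3 RPKM in the left and 1.9, 2.24 and 2.03 RPKM in the right legs (change -4.00 ± 0.10 (SE), adjusted p = 9.0e-08). Gdf5, a bone morphogenetic protein, had no read in the left legs and measured 7.39, 14.02 and 12.3 RPKM in the right ones. Tgfb1, transforming growth factor beta 1, measured 1.8, 2.24 and 2.08 RPKM in the left and 73.5, 51.5 and 63.4 RPKM in the right legs. Of the receptors, Acvr2b, which binds myostatin, fell from 3.41 ± 0.379 to 0.924 ± 0.0902 RPKM, and Acvr1b from 15.6 ± 1.22 to 8.53 ± 0.306 RPKM. Among secreted inhibitors, Fst, follistatin, which binds myostatin and activins, rose from 0.23 ± 0.127 to 14.5 ± 1.45 RPKM, and Chrd, chordin, which binds BMPs, from 1.13 ± 0.185 to 18.1 ± 1.38 RPKM. Of the 34 tested genes of the list, 13 rose (38.2%) and 10 fell (29.4%), not far from the 32.5% and 31.8% of all tested genes.

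In the insulin-like growth factor pathway 8 of 20 genes rose and 6 fell. Igf1, the ligand, had a rescaled change of -0.84 and was not called as deposited (1.84 ± 0.308 to 1.4 ± 0.312 RPKM). Irs1, the adaptor of the insulin receptor, fell from 8.46 ± 2.36 to 1.36 ± 0.525 RPKM. Igf2r, the clearance receptor of IGF2, and Akt1, the downstream kinase, rose by 1.00 and 0.89. Of the imprinted genes, Cdkn1c, a cell cycle inhibitor, rose from 21.5 ± 5.44 to 102 ± 42.3 RPKM.

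Signals from muscle to nerve also went both ways. Ncam1, an adhesion molecule of denervated fibres, measured 1.11, 0.351 and 0.949 RPKM in the left and 40.7, 42.5 and 45.5 RPKM in the right legs, and Gdnf, a survival factor of motor neurons, rose from 0.0717 ± 0.0445 to 2.81 ± 0.374 RPKM. Fgfbp1, which carries fibroblast growth factors at the synapse, measured 8.52, 5.58 and 7.78 RPKM in the left and 0.351, 0.176 and 0.176 RPKM in the right legs, a fall of 3.83 on the log2 scale. Ntf5, neurotrophin 4, which depends on muscle activity, fell from 4.14 ± 0.279 to 0.76 ± 0.297 RPKM. Of 15 such genes 5 rose and 6 fell, shares not far from the 32.5% and 31.8% of all tested genes. The list's median change was 0.05 and turned sign in some of the fits without a library.

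Of the 20 clock genes 12 fell and 2 rose (Per2 and Clock, of which 1 was called without any 1 library other than left library 1). Hlf, a clock output factor, fell from 3.35 ± 0.415 to 1.003 ± 0.133 RPKM. The labels give no time of day at which the muscles were taken.

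Of 28 matricellular proteins and proteoglycans 18 rose and none fell, with a median of 1.17. Ccn1, a matricellular protein, rose from 5.8 ± 1.22 to 83.7 ± 24.96 RPKM and Bgn, biglycan, from 7.42 ± 0.851 to 70.1 ± 25.7 RPKM. Of 23 collagens 13 rose and 3 fell, and the falls were 5 without right library 2 and 1 without right library 3. Col19a1, a collagen known from muscle development, rose from 0.17 ± 0.00666 to 11.7 ± 4.37 RPKM. Of 18 metalloproteinases and inhibitors 9 rose and 4 fell. Timp1, an inhibitor of metalloproteinases, measured 0.394, 0.266 and 0.265 RPKM in the left and 20.8, 31.6 and 31.4 RPKM in the right legs, whereas Timp3 and Timp4 fell by 1.44 and 1.35 on the log2 scale. Scx, scleraxis, a transcription factor of tendon, rose from 3.92 ± 0.0789 to 98.6 ± 25.8 RPKM.

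Markers of other cell types were measured in the same libraries, and their part in the changes above was not tested. Summed levels here and below take in every listed marker that was found, also those below the mean filter. All 12 tested macrophage markers (of 17 in the table) rose, with a summed level of 14.03 to 17.6 RPKM in the left and 118 to 228 RPKM in the right legs, and Cd68, the lysosomal marker, rose from 0.415 ± 0.163 to 20.8 ± 5.9 RPKM. Of 13 fibroblast markers 5 rose and none fell (1 without left library 1 or right library 2), with sums of 154 to 276 RPKM in the left and 375 to 608 RPKM in the right legs. Of 6 tendon and cartilage markers 4 rose, with sums of 14.9 to 22.3 RPKM in the left and 107 to 269.5 RPKM in the right legs. Endothelial markers fell in 12 of 14 and pericyte and smooth muscle markers in 6 of 10 after rescaling, but their summed deposited levels overlapped between the legs, at 92.5 to 110.1 RPKM in the left and 91.7 to 113 RPKM in the right legs and at 97.4 to 119 RPKM in the left and 91.8 to 112 RPKM in the right legs. Of 9 satellite cell markers 3 rose and 1 fell, with sums of 50.2 to 55.8 RPKM in the left and 87.97 to 121 RPKM in the right legs.

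S100a8 was the 1 neutrophil marker that passed the mean filter. Its binding partner S100a9 had 1, 0 and 5 left-leg reads against 6, 21 and 6 right-leg reads, or at most 2.14 RPKM against up to 283 RPKM for S100a8. Ly6g, Cxcr2 and Camp, which define neutrophils, had no read in any of the 6 libraries, and Elane, Retnlg and Mpo had at most 4 reads in any library. Right library 2 was highest for both S100a8 and S100a9. None of the 11 lymphocyte markers reached the filter, and their sums were 0.329 to 0.394 RPKM in the left and 1.11 to 1.86 RPKM in the right legs. Mast cell markers summed to 1.29 to 2.92 RPKM in the left and 2.67 to 7.25 RPKM in the right legs.

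Erythroid genes, which report blood left in the tissue, were called in neither direction, but without left library 1 there were 4 of 5 called lower, and without right library 2 there was 1. They summed to 162 to 326 RPKM in the left and 262 to 343 RPKM in the right legs. Hba-a1, alpha-globin, shares near-identical copies and stood at 95.8 ± 32.8 to 112 ± 14.4 RPKM (left to right). Adipocyte markers summed to 1984 to 3206 RPKM in the left and 9366 to 13534 RPKM in the right legs, of which Car3 makes up most, and Car3 was the 1 of 6 that rose. Of the 7 tested markers of Schwann cells, which ensheath the nerve, 1 rose (2 without left library 1) and none fell. All 15 markers of the list summed to 203, 7.3 and 26.02 RPKM in the left and 76.2, 74.5 and 20.1 RPKM in the right legs. Left library 1 stood far above the other left libraries, and the legs overlapped. The list's median rescaled change was -0.35 and ranged from -0.93 to 0.66 without 1 library or with other factors.

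Within the right legs single libraries differed for some genes, which were chosen for that spread. Right library 3 was lowest for 3 genes of slow fibres, though the summed slow and cardiac sarcomere list was lowest in right library 1, with 6298, 10270.2 and 7452 RPKM. Tnnc1, slow troponin C, measured 4.21, 0.224 and 0.819 RPKM in the left and 121, 138 and 25.8 RPKM in the right legs. Tpm3, slow tropomyosin, measured 4.68, 1.09 and 1.7 RPKM in the left and 85.4, 115 and 19.9 RPKM in the right legs. Myh7, slow myosin, measured 2.36, 0.16 and 0.503 RPKM in the left and 67.9, 82.3 and 18.7 RPKM in the right legs. Mhrt, a transcript from the strand opposite Myh7, followed it, but the counts did not use strand and the 2 overlap. Without right library 3 the 15 slow sarcomere genes were still all called higher, with a median of 4.59. Right library 1 was lowest for the matrix genes Postn and Thbs4 and for Hes1. Postn, periostin, measured 0.526, 0.395 and 0.649 RPKM in the left and 15.8, 64.3 and 42.4 RPKM in the right legs. Thbs4, thrombospondin 4, measured 8.31, 7.45 and 6.9 RPKM in the left and 24.9, 109 and 75.5 RPKM in the right legs. Hes1, a Notch target, measured 5.8, 6.28 and 6.87 RPKM in the left and 16.8, 43.96 and 93.2 RPKM in the right legs. Each of these genes still had all right libraries above all left ones.

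Some abundant genes lay at the median. Fth1, ferritin heavy chain, measured 1073, 1033 and 1142 RPKM in the left and 1852, 1704 and 1685 RPKM in the right legs, with a change of -0.01 ± 0.09 (SE), adjusted p = 0.889 after rescaling and 0.69 ± 0.09 (SE), adjusted p = 1.5e-04 as deposited. Tecr, a reductase of very long fatty acid synthesis, Cox5b, S100a1 and Ndufa7 were the next most abundant of this kind, with rescaled changes of 0.00, 0.09, -0.05 and 0.01. All 5 were called higher as deposited.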

How the data were processed

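RNA of 6 gastrocnemius libraries, 3 per leg, was compared. The deposited values are RPKM per gene, which the authors made with HOMER from the reads in exons of 1 transcript per gene on both strands, with the mm9 annotation, per the file headers. The column names of that file say FPKM. The submitters' processing notes also name HISAT2 and the builds GRCm38 and mm10, with no roles or versions, so the positions printed from the file are those it lists. Low values are multiples of 1 read, and 99.8% to 99.9% of the values were whole reads within 0.1 read, which gave the totals of 18743628 to 19110481 reads. A pseudocount of 0.5 RPKM was added, and the 10484 genes that averaged 1 RPKM or more were tested with limma 3.58.1 (R 4.3.3, empirical Bayes with a trend, 2 legs, no block, Benjamini-Hochberg adjustment), as deposited and after division by median-of-ratios factors over these genes. The fit was also run on simulated data, the outcome of which is not reported here and is not used as support. Groups came from the labels. The members, the 57 gene lists and the 28 pairs were chosen with earlier results of these data known. The genes named are the 15 largest rises and falls by deposited change, the 10 largest gains and losses of read share, up to 4 members per direction of each list that were called after rescaling and up to 2 called only as deposited, the genes of the pairs, 8 genes with 3 reads or fewer in each left library, the 8 most variable among the right libraries, the 8 most abundant called in opposite directions and the 5 most abundant at the median. The 15 rises and falls were taken from genes called in the same direction on both scales, without overlap of the legs as deposited. Genes named outside this rule are said to be. Reads are not independent molecules, so floors cover counting error only. The BALB/c table was not used here, and a few genes and 1 pair are not reported here. Alternatives were other pseudocounts, filters, factors and normalizations, limma-voom on recovered reads, a replicate block and leaving out each library.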

Additional observations from a re-analysis of the deposited data

How the results depend on the processing

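With quantile normalization, which gives every library the same distribution, the deposited comparison had 3295 genes higher and 3468 lower, and the changes turned to -0.041 for Cacna1s, -0.17 for Cox4i1, -0.11 for Fbxo32 and -0.28 for Trim63. With a mean of at least 5 RPKM fewer genes were tested, with 4414 higher as deposited, and 2101 higher and 2194 lower after rescaling. Under the other settings each count stayed within 1.5 times its value with all libraries. Leaving out 1 library gave 7130 to 7327 genes higher and 970 to 1033 lower as deposited, and 3050 to 3248 higher and 2943 to 3197 lower after rescaling. Limma-voom on recovered reads gave 7468 higher and 1081 lower as deposited and 3376 in each direction after rescaling. With the library number as a replicate block the counts were 7412 and 1057 as deposited and 3342 and 3303 after rescaling. Same-numbered libraries had correlations of 0.182, 0.104 and 0.007 of their deviations from the leg mean, and libraries of different number -0.166 to 0.098. Deviations from a mean of 3 libraries sum to 0, so these correlations cannot decide whether the numbers pair the legs. The labels do not state a pairing, and the main fit used none. The median absolute difference between libraries of the 2 legs was 0.724 as deposited and 0.455 after rescaling. The share difference of the 20 most abundant genes was -21.9 to -21.1 percentage points without 1 library, and 27 of 28 pair ratios fell also with 0.5 RPKM added. Of 32 named genes with a printed rescaled change that were called, 29 kept call and direction in every fit. The exceptions were Cox4i1 and, without a filter, Acta1 and Tpm2 (adjusted p = 0.0623 and 0.0585). Of 8 genes with a printed deposited change 1, Fth1, kept call and direction in every fit. Besides the turned genes, Atp5b (0.12, adjusted p = 0.224), Dok7 (0.37, adjusted p = 0.0753) and Lrp4 (0.17, adjusted p = 0.339) lost their deposited call under quantile normalization. Dok7 was called higher after rescaling without right library 1 (adjusted p = 0.00548) and with the replicate block (adjusted p = 0.0359). The causes were not tested.

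Depth limits the genes near 0 in a leg, and 3 libraries per leg limit single-gene calls near the threshold. Rises and falls against the median gene are relative, and the labels give no RNA yield, sham status or mouse identity for the libraries.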
